A study of Mus musculus with 10 samples.

Results

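The Iroquois (Irx) family of transcription factors was followed in retinal ganglion cells (RGCs), the neurons whose axons form the optic nerve, before and after optic nerve crush (ONC) injury. The 6 members, Irx1 to Irx6, were taken by symbol from the 34254 genes that were counted. They were chosen by their level per library, the share of cells in which they were detected, their change after injury and the cells they shared, so those values are given below as a description, and no call on them is used as support. What was not used in the choice, namely which other genes went with each Irx gene in uninjured cells, was tested.

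Single cell RNA-seq (scRNA-seq) libraries came from wild-type 129S1/SvImJ mice of both sexes at 12 weeks of age (postnatal day 84), 6 of them uninjured and 4 taken 2 weeks after ONC. RGCs were captured with an antibody against the surface protein Thy1 from pools of 10 retinas per batch, after macrophages had been depleted (the methods add amacrine cells, and the series description a sort by flow cytometry), so that no single mouse can be followed and p-values measure the spread between libraries. Every deposited cell carried the pan-RGC transcripts Rbpms, Slc17a6, Sncg and Tubb3, on which the cells had been selected. Each RNA molecule that was captured is counted by its own tag, or UMI, and CPM (counts per 1e6 UMIs) is the level of a gene relative to all UMIs of a sample.

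The uninjured libraries held 1683 cells and 2839693 to 23180399 UMIs each, and the injured libraries 1609 cells and 4698799 to 8860536 UMIs each. Injured cells were shallower, with a median of 11257 to 14695 UMIs per cell against 20437 to 34337. Injured 3 and 4 shared 421 barcodes, of 527 and 471 cells, and differed by no more than sampling noise, so they were averaged and counted as 1 sample, which left 6 uninjured and 3 injured samples and 1188 distinct injured cells. The uninjured libraries fell into pairs, 1 and 2, 3 and 4, and 5 and 6, which differed by 1.75, 1.81 and 1.44 times the sampling noise within a pair and by 3.46 to 15.9 times between pairs, so the 6 may not be independent. Injured 1 and 2 differed by 2.11 times the noise. The mCherry reporter was found only in injured libraries, in 7.99%, 15.02%, 86.0% and 84.3% of the cells of injured 1 to 4, and the labels do not mention it.

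Irx genes encode homeodomain proteins of the TALE class, which bind DNA and set the identity of cells in many developing tissues. In mammals they lie in a pair of clusters that arose by duplication, so that Irx1, Irx2 and Irx4 of one cluster have as their counterparts Irx3, Irx5 and Irx6 of the other. In the mouse retina Irx5 is known from certain OFF cone bipolar cells and Irx6 from bipolar cells as well, and Irx4 is known from chick RGCs, where it acts on the axon guidance gene Slit1.

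In the GENCODE annotation of mm39 (GRCm39), the build to which the reads were aligned, the first cluster is on chromosome 13 and the other on chromosome 8. Irx1 (ENSMUSG00000060969.11) lies on the reverse strand at chr13:72106040-72111848, Irx2 (ENSMUSG00000001504.12) on the forward strand at chr13:72776906-72782317 and Irx4 (ENSMUSG00000021604.17) on the forward strand at chr13:73407700-73417745. On chromosome 8, Irx3 (ENSMUSG00000031734.14) lies on the reverse strand at chr8:92525153-92528695, Irx5 (ENSMUSG00000031737.12) on the forward strand at chr8:93084253-93102914 and Irx6 (ENSMUSG00000031738.15) on the forward strand at chr8:93400916-93407584. Neighbours in a cluster are 298001 to 665057 bases apart. All but Irx1 overlap 1 noncoding gene of the opposite strand (Irx3os for Irx3, Crnde for Irx5), and how reads in the overlap were assigned is not given in the sources used here.

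The homeobox is the stretch of an Irx gene that encodes its DNA-binding homeodomain, and 30 bases of it that encode the recognition helix, which lies in the major groove of DNA, are shown for every member because they show how alike the family is where it meets DNA. They read 5′ to 3′ on the coding strand, lie within exon 2 of Irx1, Irx2, Irx3 and Irx5, exon 5 of Irx4 and exon 4 of Irx6, and carry capitals at the 6 positions where the members do not all have the same base.
Irx1: tggttCgccaaTgcGcgCcgGcgCctcaag
Irx2: tggttCgccaaCgcGcgCcgAcgTctcaag
Irx3: tggttCgccaaCgcGcgCcgGcgCctcaag
Irx4: tggttTgccaaCgcAcgTcgGcgCctcaag
Irx5: tggttTgccaaCgcGcgCcgGcgCctcaag
Irx6: tggttCgccaaCgcGcgCcgGcgCctcaag
None of the 6 positions changes the encoded amino acid, so the residues encoded by this stretch are the same in every member. In its bases, Irx3 and Irx6 were the same, and Irx2 and Irx4, neighbours on chromosome 13, differed at 5, more than any other pair. Over the 189 bases of the whole homeobox, Irx2 was most like its counterpart Irx5 (91.0% identical bases) and Irx1 most like its counterpart Irx3 (89.4%), whereas Irx2 and Irx4 shared 83.1%. Irx4 was most like its counterpart Irx6 (87.8%), but Irx6 was most like Irx3 of its own cluster (88.9%). The reads, however, come from the 3′ end of a transcript, and there none of the 470 stretches of 31 bases in the last 500 bases of each member was found in a transcript of another member.

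In uninjured RGCs, 5 of the 6 Irx genes were detected in a large share of cells, and after injury the family separated into genes that nearly disappeared (Irx4 and Irx6), a gene that was lower but still present (Irx2) and a pair whose levels overlapped between conditions (Irx3 and Irx5). The mean level in uninjured samples (n = 6) was 55.6 ± 7.54 CPM (SD) for Irx4, 47.7 ± 11.1 CPM for Irx2, 47.7 ± 12.4 CPM for Irx6, 47.5 ± 14.3 CPM for Irx5, 23.3 ± 3.35 CPM for Irx3 and 2.02 ± 2.67 CPM for Irx1. UMIs are counted once per molecule at its 3′ end and so are not scaled by transcript length. The first 4 of these levels lay within 1 SD of Irx5, so that only Irx3 and Irx1 stood apart from them.

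Irx4 was the member with the lowest level after injury relative to uninjured cells. Its level in uninjured samples 1 to 6 was 60.3, 56.1, 42.9, 50.8, 62.3 and 61.2 CPM. In injured 1, injured 2 and the mean of injured 3 and 4 it was 0.875, 0.898 and 1.07 CPM. The lowest uninjured sample was thus 39.9 times the highest injured one, and the fitted log2 difference, injured minus uninjured, was -5.82 ± 0.23 (SE). Among the 14234 genes tested, 27 had a log2 difference as low as or lower than Irx4, itself included.

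Irx6, the counterpart of Irx4 in the other cluster, came next. Its level was 38.1, 60.3, 36.3, 35.5, 62.1 and 53.7 CPM in uninjured samples 1 to 6. It was 1.93, 4.72 and 2.42 CPM in the 3 injured samples. The groups did not overlap, with 7.53 times between the lowest uninjured and the highest injured sample, and the fitted log2 difference was -4.02 ± 0.33.

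Irx2, the neighbour of Irx4 on chromosome 13, kept 25.3% of its mean level. It was 62.3, 50.7, 35.6, 33.4, 52.8 and 51.2 CPM in uninjured samples 1 to 6. In the injured samples it was 10.7, 9.66 and 15.8 CPM, all under the lowest uninjured sample, and the log2 difference was -1.95 ± 0.25.

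Irx5 and Irx3 overlapped between conditions. Irx5, the counterpart of Irx2, was at 66.0, 63.9, 46.6, 40.1, 35.8 and 32.6 CPM in uninjured samples 1 to 6, and at 34.3, 26.9 and 28.6 CPM in the injured samples, a log2 difference of -0.65 ± 0.24. Its uninjured level stepped down with the pairs of similar libraries, from samples 1 and 2 to 3 and 4 and then 5 and 6, and these last were close to injured 1. Irx3 was at 22.6, 28.3, 22.3, 18.1, 24.5 and 24.0 CPM in uninjured samples and at 14.2, 19.8 and 16.9 CPM in injured ones, a log2 difference of -0.45 ± 0.17. Only uninjured 4 was within the range of the injured samples for Irx3.

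Irx1 was close to the limit of detection. It had no UMI in uninjured 1 and 2, where 3 UMIs would have been 1.06 and 0.876 CPM of the library total (without the TMM scaling of the other values), and 1.43, 1.23, 7.17 and 2.27 CPM in uninjured 3 to 6. The injured samples had 0.700, 0.449 and 1.48 CPM, within the uninjured range, and Irx1 did not pass the filter on low counts.

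**Figure D1:**
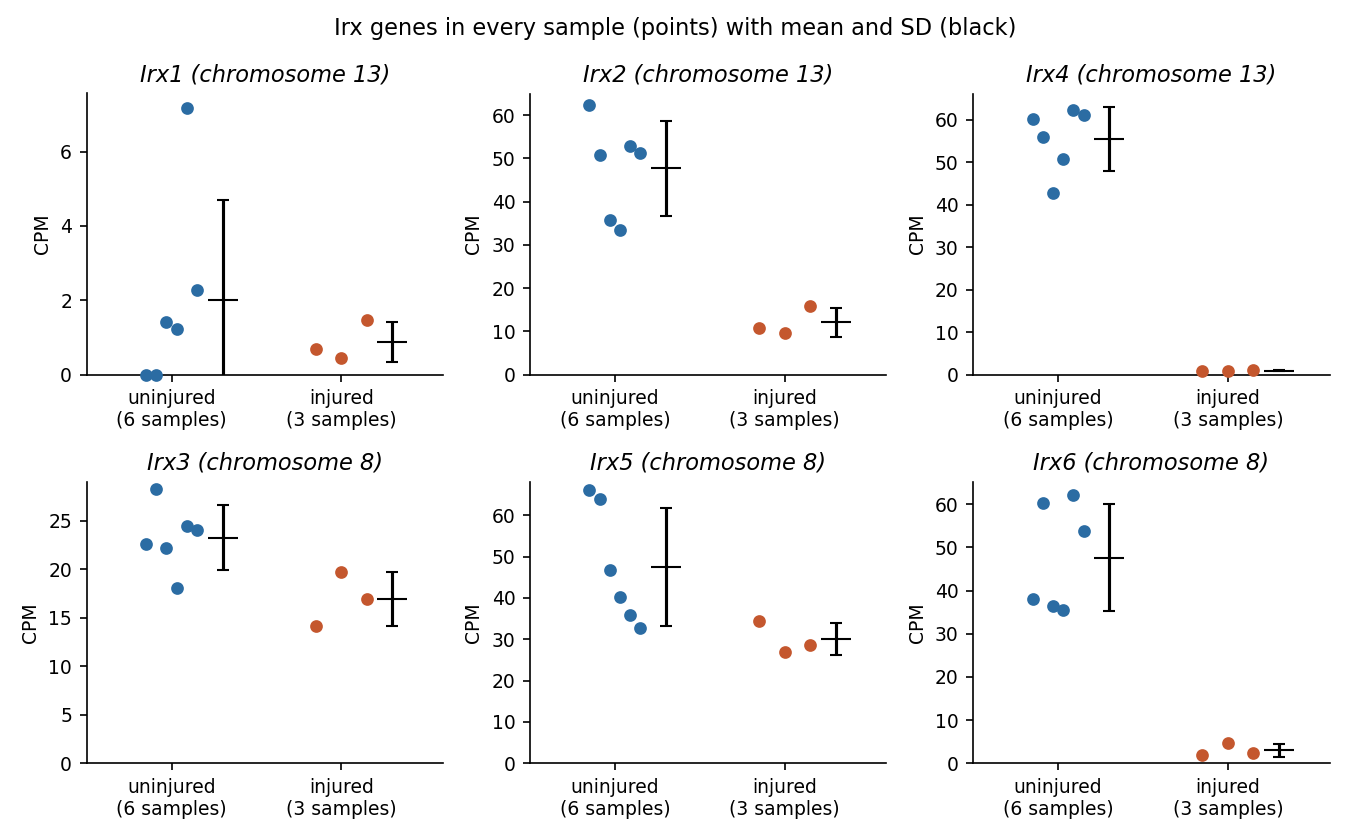
Level of each Irx gene in CPM (vertical axis, linear and starting at 0) in the 6 uninjured samples (blue points) and the 3 injured samples (orange points), with the mean and SD in black (the SD of uninjured Irx1 runs below 0 and is drawn to the axis). Irx4 and Irx6 sit at or under 1.07 and 4.72 CPM in all injured samples, while the injured samples of Irx3 and Irx5 reach into the uninjured range.

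All 5 tested members were past the adjusted p of 0.05 of edgeR's quasi-likelihood test and lower after injury, in a contrast in which 22.7% of the genes tested were past it and lower (3230 of 14234). In 3 of the 5 the samples did not overlap, and of all genes tested 21.1% were lower without overlap. Since injury change chose the members, nothing is read from these counts. The call for Irx3 was lost in 17 of 27 other settings and that for Irx5 in 10 of 27. Both were lost without uninjured 1, 2 or 3, without injured 1, and with the pairs of similar libraries summed. In cells without an mCherry UMI the log2 difference was -6.05 for Irx4, -3.99 for Irx6, -2.27 for Irx2, -0.77 for Irx5 and -0.51 for Irx3, and with injured 3 and 4 left out it was -5.92, -3.85, -2.19, -0.60 and -0.43.

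Transcripts of other retinal cells bear on Irx5 and Irx6, which bipolar cells also use. Of the 15 bipolar cell markers, 11 were detected in under 5% of uninjured cells, and the defining gene Vsx1 had no UMI in any library. The summed level of the list was 282 to 377 CPM in uninjured and 204 to 239 CPM in injured libraries, so that it was lower after injury, as the Irx genes were. Prkca, Isl1, Grik1 and Car8 were the 4 markers found in more cells. Summed markers of amacrine cells were at 466.3 to 793 CPM in uninjured and 186 to 365 CPM in injured libraries, those of horizontal cells at 60.6 to 148 and 12.6 to 24.2 CPM, and those of Mueller glia at 205 to 287 and 292 to 452 CPM. The part of these in the Irx levels was not tested. Cells that carried at least 3 markers of any other retinal class were then left out, which kept 456 of 1683 uninjured cells (18 to 118 per library) and 1180 of 1609 injured cells. The lists hold genes that these cells often carried, such as Isl1 and Pax6, the latter at 325 ± 20.1 CPM in uninjured samples. Uninjured cells were also deeper, so the filter selects by depth and by kind of RGC as well, and these were not separated. The log2 difference was then -6.19 for Irx4, -4.22 for Irx6 and -2.43 for Irx2, but -0.31 for Irx5 and -0.14 for Irx3. The latter 2 were no longer past the threshold.

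Shares of cells separated the members as CPM did for Irx4, Irx6 and Irx2. A UMI of Irx4 was found in 50.2% ± 5.51 of the cells of uninjured samples (SD, n = 6) and in 1.44% ± 0.058 of the cells of injured samples (n = 3). For Irx6 the shares were 43.4% ± 7.57 and 4.27% ± 2.02, for Irx2 48.5% ± 6.90 and 15.6% ± 2.36, for Irx5 52.4% ± 14.7 and 29.4% ± 3.31, and for Irx3 31.5% ± 7.91 and 19.1% ± 1.39. Irx1 was found in 1.70% ± 1.69 and 1.08% ± 0.474 of cells.

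Because injured cells were shallower, each cell was also thinned to 8000 UMIs drawn at random, which left 1654 uninjured and 1376 injured cells. At this equal depth Irx4 was detected in 31.7% ± 3.98 of the cells of uninjured samples and 0.562% ± 0.659 of those of injured samples, Irx6 in 22.3% ± 2.66 and 2.21% ± 1.21, and Irx2 in 28.6% ± 4.18 and 8.76% ± 2.83, without overlap of the samples. Irx5 (26.9% ± 8.0 and 19.9% ± 1.75) and Irx3 (15.5% ± 4.05 and 12.1% ± 2.76) overlapped between conditions. Thinned levels of Irx4 in injured cells are near that of a single UMI, so no order among the injured samples is read from them.

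No injured cell held as much Irx4 as the richest uninjured cells. Before injury 218 of 1683 cells (12.95%) held at least 5 UMIs of Irx4, and a single cell held up to 16. Of the 1188 injured cells, 20 held Irx4 at all, 19 of them with 1 UMI and the other with 2. For Irx6, 173 uninjured cells and 0 injured cells held at least 5 UMIs, for Irx2 123 and 0, for Irx5 143 and 7, and for Irx3 44 and 1. These counts use all UMIs, and injured cells were shallower. Barcodes shared by injured 3 and 4 were counted from injured 3, and in injured 4 a cell with such a barcode held 5 UMIs of Irx2. At 8000 UMIs per cell, cells with at least 2 UMIs of Irx4 made up 13.2% ± 2.22 of uninjured and 0.083% ± 0.143 of injured samples, those of Irx6 9.15% ± 3.53 and 0.242% ± 0.212, and those of Irx2 9.36% ± 2.02 and 0.51% ± 0.574. For Irx5 (8.16% ± 3.09 and 4.76% ± 1.04) and Irx3 (4.13% ± 2.42 and 1.97% ± 1.15) the conditions overlapped. Whether cells rich in an Irx gene were lost or made less of its RNA cannot be told apart in these libraries.

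UMIs of several Irx genes were often found under 1 cell barcode, and doublets were not called again. At 8000 UMIs per cell the mean number of Irx genes detected was 1.26 ± 0.17 in uninjured samples and 0.441 ± 0.026 in injured samples. Cells with none made up 32.7% ± 6.97 of uninjured and 66.2% ± 1.69 of injured cells, and cells with at least 2 made up 39.1% ± 6.19 and 8.93% ± 2.97. Samples of the 2 conditions did not overlap in any of the 3 measures. Free RNA can also give such UMIs, and its part was not tested. Among uninjured cells taken by a marker transcript the lowest shares at this depth were 5.65% for Irx2 (cells with Neurod2), 4.75% for Irx3 (cells with Foxp2), 3.17% for Irx4 (cells with Opn4), 4.15% for Irx5 and 0.593% for Irx6 (both in cells with Foxp2).

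Neighbours on a chromosome were found together more often than counterparts across the clusters were, Irx1 left out. With the library as a stratum, the odds of finding a gene in cells with the other, over the odds in cells without it, gave a Mantel-Haenszel odds ratio of 18.8 for Irx2 and Irx4 in uninjured cells, with 628 cells that held both where 369 would have been found if they were independent. For Irx5 and Irx6 it was 10.6 (545 cells with both, 340 if independent) and for Irx3 and Irx5 8.18 (400 cells, 245 if independent). These 3 pairs are neighbours in their clusters. The counterparts Irx2 and Irx5 had 2.23 and Irx4 and Irx6 1.47. Other pairs did not all follow the clusters. Irx3 and Irx4, on different chromosomes, had 5.22 (368 cells, 236 if independent), above Irx3 and Irx6 of the same cluster (3.81). Across clusters, Irx2 and Irx3 had 3.14 and Irx4 and Irx5 2.46. Irx1 was found in 33 uninjured cells, of which 31 held Irx2, 29 Irx6, 27 Irx5, 23 Irx3 and 21 Irx4, so that these few cells did not follow the clusters. At 8000 UMIs per cell, 9 of 17 cells with Irx1 held Irx2 (odds ratio 3.19, from 20.1 with all UMIs). With all UMIs the ratio of Irx1 and Irx2 was 13.4 without uninjured 4 and 35.7 without uninjured 6. Thinning took the ratio of Irx1 from 11.9 to 1.48 with Irx6 and from 6.93 to 1.99 with Irx3. With Irx5 it went from 6.49 to 6.62, and with Irx4 from 2.03 to 2.75.

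At 8000 UMIs per cell the ratios of the 10 pairs without Irx1 were smaller in uninjured cells, and the cause was not tested. Irx2 and Irx4 then had 4.72, Irx5 and Irx6 3.43, Irx3 and Irx5 2.74, Irx3 and Irx4 1.91, Irx2 and Irx3 1.83 and Irx3 and Irx6 1.57. Irx2 and Irx6 were at 1.02, and Irx4 and Irx6 at 0.844, with fewer shared cells than if they were independent in all 6 libraries. The 4 pairs within a cluster, Irx1 left out, had a median of 3.08 and the 6 pairs across clusters one of 1.26. The ratio of Irx4 and Irx6 thus lay above 1 with all UMIs and below 1 at equal depth.

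Among injured cells the pair of Irx3 and Irx5 was still found together, in 120 cells where 65.8 would have been found if independent (odds ratio 3.69, and 2.86 at 8000 UMIs per cell). Irx2 and Irx3 had 69 shared cells where 38.2 would have been found if independent (odds ratio 2.81). Irx2 and Irx4 shared 8 cells (3.52 if independent) and Irx5 and Irx6 22 cells (14.98 if independent), too few to set beside the uninjured values.

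**Figure D2:**
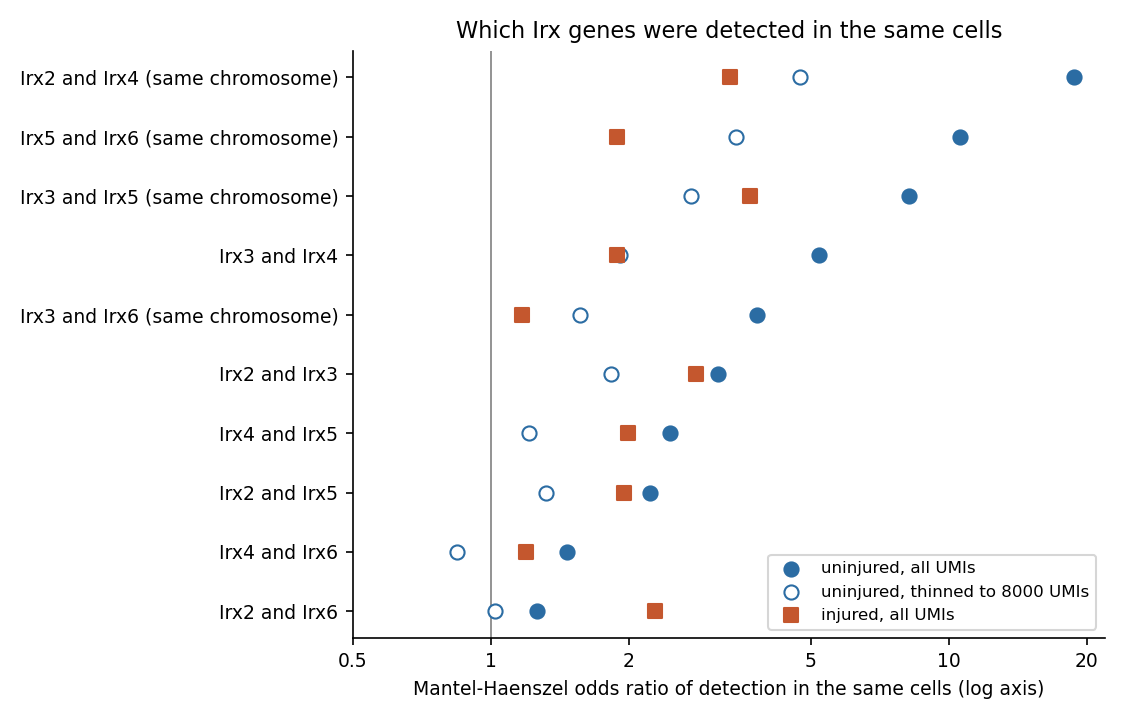
Mantel-Haenszel odds ratio of detection in the same cells (horizontal axis, log scale) for the 10 pairs of Irx2 to Irx6, in uninjured cells with all UMIs (filled circles) and thinned to 8000 UMIs (open circles) and in injured cells with all UMIs (squares), with the line at 1 for independence. Irx2 and Irx4 lead at 18.8 and Irx2 and Irx6 are lowest at 1.26 among uninjured cells with all UMIs, and the thinned value of Irx4 and Irx6 is left of the line.

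Uninjured cells with a UMI of an Irx gene were then compared with cells of the same library without one, all thinned to 8000 UMIs, for every other gene (edgeR's quasi-likelihood test with the library as a term, Benjamini-Hochberg adjustment over all genes, 6 libraries). Cells without a UMI after thinning include cells that held the gene at full depth. Irx4, for instance, was found in 805 of 1683 uninjured cells with all UMIs and in 502 of 1654 when thinned. Cells with Irx4 had 343 genes past the adjusted p of 0.05 that were higher (4% of 8568 tested) and 395 that were lower (4.61%). Cells with Irx2 had 262 that were higher (3.08% of 8494) and 341 that were lower (4.01%). Cells with Irx6 had 191 in each direction (2.34% of 8150), cells with Irx5 134 that were higher (1.6% of 8384) and 145 that were lower (1.73%), and cells with Irx3 76 that were higher (0.925% of 8217) and 88 that were lower (1.07%). Irx1 was found in too few cells. Both counts together moved by over 1.5 times without uninjured 3, to 100 from 164 for Irx3 and to 175 from 279 for Irx5, and without uninjured 4, to 146 for Irx5 and to 198 from 382 for Irx6. Single directions moved by over 1.5 times in further cases. Without uninjured 4 the lower genes numbered 217 for Irx2 and 58 for Irx3, and without uninjured 5 the higher genes numbered 49 for Irx3 and 79 for Irx5. By their total UMIs before thinning, cells in which Irx4 was still detected after thinning were shallower than the rest in all 6 libraries. With detection from all UMIs, cells with Irx4 were deeper in uninjured 1 (median 30281 against 24994 UMIs) and uninjured 4 (35415 against 33582) and shallower in the others.

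Trarg1 and Ppp1r17 were among the leading genes both of cells with Irx4 and of cells with Irx2, and the other leading genes differed. Trarg1, a regulator of glucose transporter trafficking, was at 490 ± 91.8 CPM (SD, n = 6 libraries) in cells with Irx4 and at 161 ± 46.4 CPM in cells without, a log2 ratio of 1.68 ± 0.08 (SE, adjusted p = 1.91e-21, edgeR). In cells with Irx2 its log2 ratio was 1.39 ± 0.07 (adjusted p = 5.55e-21, edgeR). Ppp1r17, an inhibitor of protein phosphatases, was at 151 ± 44.8 CPM with and 57.2 ± 14.3 CPM without Irx4 (log2 ratio 1.38 ± 0.11, adjusted p = 1.04e-14, edgeR) and had a log2 ratio of 1.23 ± 0.11 in cells with Irx2. Cells with Irx4 also led in Gm49678 (1.76 ± 0.16) and Vwc2l, a relative of secreted BMP antagonists (1.51 ± 0.13). Cells with Irx2 also led in Sptssb, a small subunit of the enzyme that starts sphingolipid synthesis (1.39 ± 0.13), and Rhoc, a small GTPase of the cytoskeleton (1.15 ± 0.12). The genes were each past the adjusted p of 0.05. Irx4 in cells with Irx2 and Irx2 in cells with Irx4 were among the leading genes as well, at log2 ratios of 1.45 and 1.59, and are given without a test.

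In cells with Irx6, many of which also held Irx4 or Irx2, the leading genes were others. Ctxn3, a cortexin of the neuronal membrane, was at 94.2 ± 53.9 CPM with and 17.5 ± 12.3 CPM without Irx6, a log2 ratio of 2.34 ± 0.15 (adjusted p = 8.94e-18, edgeR). Atp2b4, a calcium pump of the plasma membrane, had a log2 ratio of 1.52 ± 0.14 (adjusted p = 8.92e-12, edgeR) and Myo5b, an unconventional myosin of vesicle transport, one of 1.21 ± 0.15 (adjusted p = 9.25e-07, edgeR). Gpc5, a glypican, had 1.20 ± 0.27 (adjusted p = 0.0264, edgeR), which was no longer past the threshold without uninjured 2 (log2 ratio 1.24), with all UMIs (1.03) or with at least 2 UMIs of Irx6 (1.53). Myo5b was not past it with all UMIs (0.68). Irx5, the neighbour of Irx6, was the other leading gene, at 94.2 ± 17.7 CPM with and 36.8 ± 15.4 CPM without Irx6.

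Cells with Irx5 led in Irx6 (88.3 ± 33.0 CPM with and 31.7 ± 7.89 CPM without) and in Sema3a, a secreted axon guidance protein, at 115 ± 56.7 CPM with and 49.9 ± 12.4 CPM without Irx5 (log2 ratio 1.26 ± 0.12, adjusted p = 3.45e-15, edgeR). Lypd6, a modulator of nicotinic receptors, had a log2 ratio of 0.86 ± 0.12, Cox7a1, a subunit of cytochrome c oxidase, 0.85 ± 0.17, and Elfn1, a synaptic adhesion protein, 0.77 ± 0.12. All 3 were past the adjusted p of 0.05, and Cox7a1 was not without uninjured 4 (log2 ratio 0.62), with DESeq2 (0.79) or with at least 2 UMIs of Irx5 (0.95).

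Cells with Irx3 had the smallest set, led by Zfp536, a zinc finger repressor of neuronal differentiation, at 98.0 ± 31.1 CPM with and 41.5 ± 12.1 CPM without Irx3 (log2 ratio 1.20 ± 0.15, adjusted p = 1.11e-07, edgeR). Irx5 followed at 85.4 ± 17.7 CPM with and 42.9 ± 15.3 CPM without. Chst9, a sulfotransferase (1.00 ± 0.13), Pcdh17, a protocadherin (0.84 ± 0.13), and D130009I18Rik (0.81 ± 0.10) made up the rest, all past the adjusted p of 0.05. With at least 2 UMIs of Irx3 as the bar, none of the 4 genes outside the family was past it, with log2 ratios of 1.11 for Zfp536, 0.93 for Chst9, 0.72 for Pcdh17 and 0.49 for D130009I18Rik.

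**Figure D3:**
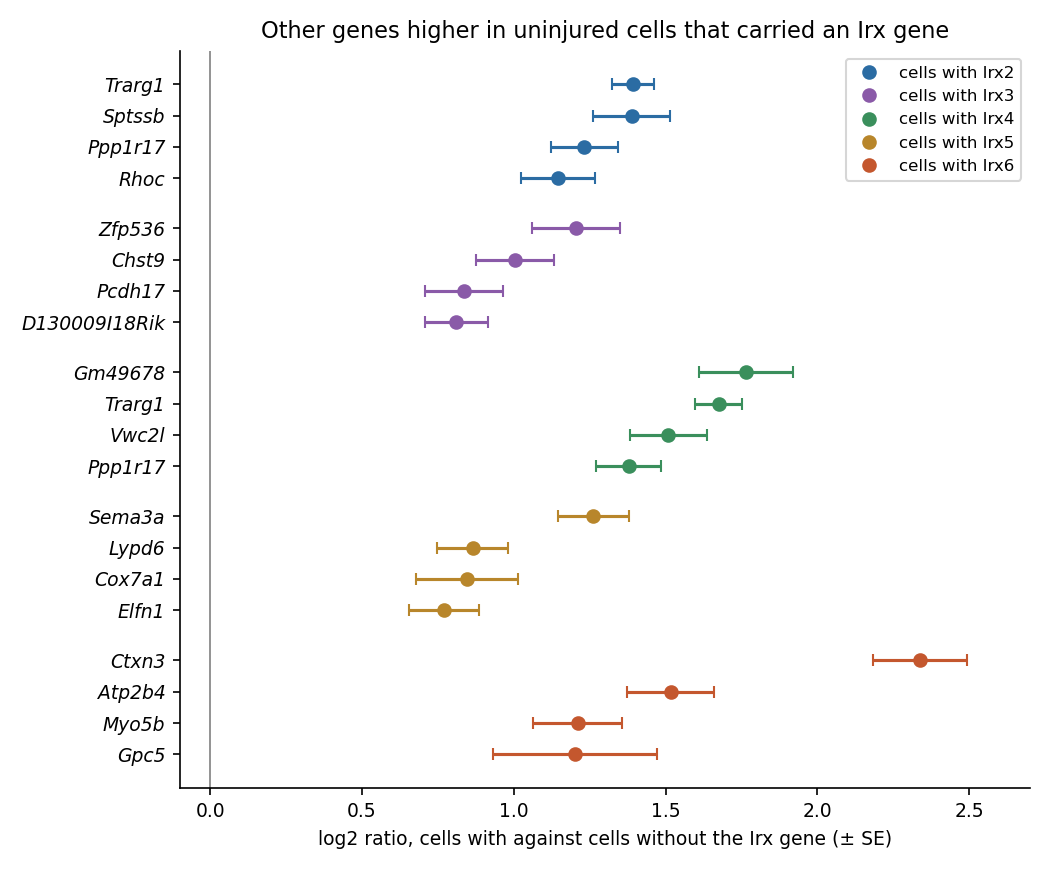
Log2 ratio of CPM in uninjured cells with against cells without each Irx gene (horizontal axis, points with SE bars, 6 libraries), for the leading genes outside the family. Ctxn3 in cells with Irx6 has the largest ratio, 2.34, and Trarg1 and Ppp1r17 appear for both Irx2 and Irx4.

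Transcription factors that mark kinds of RGCs were past the threshold as well, and those given here were chosen from the list of 41 after their values were seen. Others of the list were past it in both directions, such as Pou4f1 (higher) and Meis2 (lower) in cells with Irx4. Of all genes tested, 7.1% were past it for Irx2, 2% for Irx3, 8.61% for Irx4, 3.33% for Irx5 and 4.69% for Irx6. The list as a whole was not set against these shares. Foxp2, the marker of F-type RGCs, was at 1.51 ± 3.70 CPM in cells with Irx6 and 141 ± 36.2 CPM in cells without (adjusted p = 3.19e-22, edgeR), and at 12.9 ± 14.4 and 146 ± 40.2 CPM in cells with and without Irx5 (adjusted p = 2.58e-05, edgeR). Tbx20, a factor of melanopsin RGCs, was at 54.9 ± 24.8 CPM with and 14.5 ± 3.50 CPM without Irx6 (adjusted p = 5.05e-11, edgeR), but at 1.51 ± 3.70 CPM with and 33.0 ± 7.07 CPM without Irx4 (adjusted p = 9.03e-11, edgeR). Bnc2, a zinc finger protein, was higher in cells with Irx4 (79.5 ± 48.8 against 29.8 ± 13.9 CPM, adjusted p = 2.45e-10, edgeR) and lower in cells with Irx6 (11.2 ± 12.3 against 54.4 ± 23.4 CPM, adjusted p = 4.21e-10, edgeR). Isl1, a LIM homeobox factor, was lower in cells with Irx4 (40.1 ± 22.7 against 148 ± 24.0 CPM, adjusted p = 6.66e-08, edgeR), and likewise in cells with Irx2 (44.8 ± 23.8 against 143 ± 30.6 CPM), Irx3 (55.6 ± 25.2 against 126 ± 30.1 CPM) and Irx5 (83.4 ± 20.7 against 123 ± 27.4 CPM), each past the adjusted p of 0.05. The receptor gene Prlr, of no list, was at 2.33 ± 2.20 against 56.7 ± 23.4 CPM in cells with and without Irx4 (adjusted p = 4.58e-19, edgeR) and was also lower past the threshold in cells with Irx2, Irx3 and Irx5. A difference between 2 Irx genes in such a ratio was not tested.

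Over cells rather than pools, the genes most like each Irx gene were ranked by Pearson's r within each uninjured library, averaged over the 6, among 13395 genes found in at least 5% of uninjured cells. The points of such an r are cells that share a library and differ in depth, so the values are a description. Irx4 was most like Trarg1 (r = 0.597), Zfp804b (0.596), Irx2 (0.542), Reln, which encodes the secreted protein reelin (0.494), and Ppp1r17 (0.479). Irx2 was most like Trarg1 (0.556), Irx4 (0.542), Zfp804b (0.527), Ppp1r17 (0.487) and Sptssb (0.454). Irx6 was most like its neighbour Irx5 (0.469), Atp2b4 (0.399), the T-box factor gene Tbr1 (0.348), Crhbp, which encodes a protein that binds corticotropin-releasing hormone (0.348), and Ctxn3 (0.344). For Irx5 the order was Irx6 (0.469), Dkk3, a secreted Dickkopf relative (0.347), Ncam2, an adhesion molecule (0.320), Irx3 (0.316) and Gabrb1, a GABA receptor subunit (0.288). Irx3 was most like Crnde (0.345), the noncoding gene that overlaps the start of Irx5, then Irx5 (0.316), Zfp536 (0.292), Cnr1, the cannabinoid receptor (0.289), and Onecut1, a homeobox factor (0.285).

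Cells were also taken by a UMI of a marker transcript, at 8000 UMIs per cell, and the shares that follow have exact 95% binomial intervals for counting error alone. Irx6 was found in 47 of 80 uninjured cells with Tbr1 (58.8%, interval 47.2% to 69.6%), in 51 of 108 with Eomes (47.2%, 37.5% to 57.1%) and in 24 of 63 with Opn4, the melanopsin gene (38.1%, 26.1% to 51.2%). In cells with Foxp2 it was found in 2 of 337 (0.593%, 0.072% to 2.13%). The part of free RNA in these shares was not tested. Irx4 was found in 52 of 79 cells with Zic1 (65.8%, 54.3% to 76.1%) and 123 of 337 with Foxp2 (36.5%, 31.3% to 41.9%), but in 5 of 108 with Eomes (4.63%, 1.52% to 10.5%). Irx5 was found in 28 of 80 cells with Tbr1 (35.0%) and 14 of 337 with Foxp2 (4.15%), and Irx2 in 44 of 79 with Zic1 (55.7%) and 6 of 80 with Tbr1 (7.5%).

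In injured cells with the same markers, Irx4 was found in 1 of 116 with Foxp2 (0.862%, 0.022% to 4.71%), in 0 of 90 with Tfap2d (upper bound 4.02%) against 64 of 273 before injury (23.4%), and in 0 of 32 with Tbr1 (upper bound 10.9%) against 13 of 80 (16.2%). Irx6 was found in 2 of 32 with Tbr1 (6.25%, 0.766% to 20.8%), in 7 of 44 with Eomes (15.9%, 6.64% to 30.1%) and in 8 of 62 with Opn4 (12.9%, 5.74% to 23.9%). Cells with Opn4 or Eomes made up 75 of 1042 injured cells at this depth and 9 of the 20 that still held Irx6. Irx6 was thus found in 12.0% of them (5.64% to 21.6%) and in 1.14% of all other injured cells (0.569% to 2.03%), against 47.0% and 19.5% before injury. Irx4 was found in 3 of the 75 (4.0%, 0.833% to 11.2%) and in 6 of the 967 other injured cells (0.62%, 0.228% to 1.35%), against 5.13% and 32.3% before injury. Irx5 was found in 14 of 44 injured cells with Eomes (31.8%) and 36 of 108 uninjured ones (33.3%). Since a marker may itself change after injury, the same cells need not be compared in both conditions, and fewer than 10 injured cells held Zic1 or Neurod2.

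**Figure D4:**
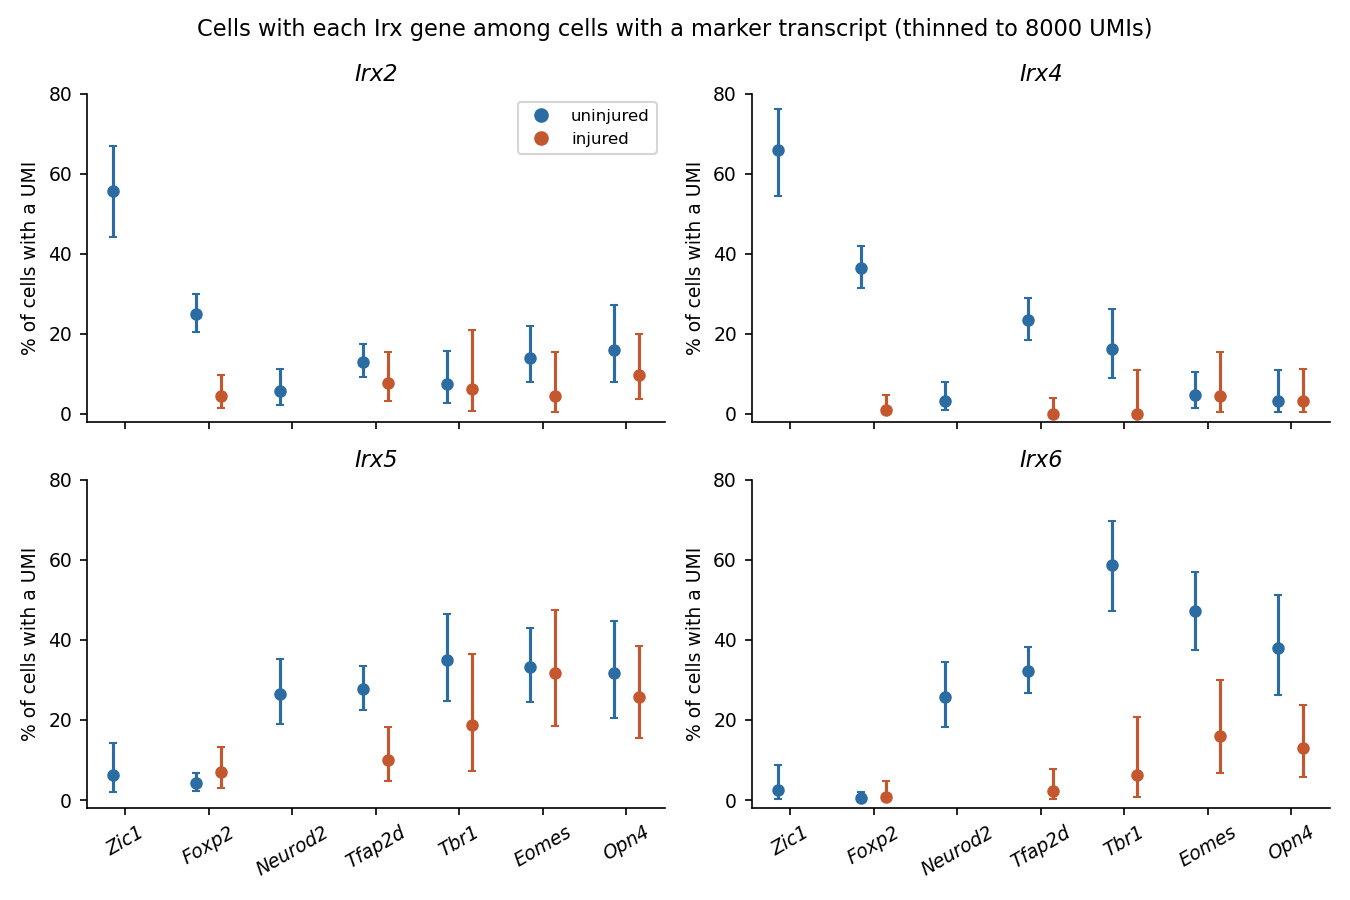
Share of cells with a UMI of Irx2, Irx4, Irx5 or Irx6 (vertical axis, %) among cells with a UMI of each marker gene (horizontal axis), in uninjured (blue) and injured (orange) cells thinned to 8000 UMIs, with exact 95% binomial intervals and markers with under 10 cells left out. Irx4 is highest in uninjured cells with Zic1 (65.8%) and Irx6 in those with Tbr1 (58.8%), and Irx6 in injured cells is highest with Eomes (15.9%).

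The genes named above by their ratio in cells with an Irx gene were looked up in the injury test over all genes, in which 21.3% were higher and 22.7% lower past the threshold. They had to be well detected in uninjured cells to be named, so genes low before injury could not enter, and nothing is read from the direction of their changes as a set. Trarg1 was at 222 ± 63.4 CPM in uninjured (n = 6) and 25.3 ± 2.21 CPM in injured samples (n = 3), a log2 difference of -3.13 ± 0.27. Ppp1r17 went from 75.3 ± 23.7 to 1.35 ± 0.13 CPM (-5.76 ± 0.39) and Sptssb from 71.4 ± 36.5 to 1.26 ± 0.28 CPM (-5.79 ± 0.56). Vwc2l, with 52.2 ± 15.3 and 19.4 ± 5.25 CPM, had -1.42 ± 0.26, Gm49678 had -4.48 ± 0.24, and Rhoc was higher after injury, at 256 ± 24.5 CPM against 56.0 ± 22.7 CPM (2.21 ± 0.29). Among the genes of Irx5 and Irx6, Cox7a1 had -4.40 ± 0.51, Elfn1 -3.23 ± 0.42, Lypd6 -2.40 ± 0.19, Sema3a -1.74 ± 0.32, Atp2b4 -0.90 ± 0.18 and Gpc5 -0.86 ± 0.30, all past the adjusted p of 0.05 of edgeR. Ctxn3 (-0.96 ± 0.55) and Myo5b (-0.93 ± 0.45) were not past it. Of the genes that went with Irx3, Chst9 (-1.86 ± 0.42) and D130009I18Rik (-2.85 ± 0.47) were past it and Zfp536 (0.37 ± 0.27) and Pcdh17 (0.43 ± 0.24) were not.

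The other TALE homeobox genes, the Pbx, Meis, Pknox and Tgif genes and Mkx, were counted in the same test. Of the 12 on the list, 11 were tested, 4 were higher and 1 was lower past the adjusted p of 0.05, with a median log2 difference of 0.19 against -0.03 over all 14234 genes, of which 21.3% were higher and 22.7% lower. With limma-voom 9 were past the threshold, as were 8249 of all 14234 genes, and in libraries 1 to 4 alone, with injured 3 and 4 as separate samples, 9 were, as were 8230 of 13943 genes, against 6256 of 14234 in the fit given here. Tgif1, a TALE repressor, had the largest rise, from 0.019 ± 0.032 to 9.14 ± 2.90 CPM (adjusted p = 1.59e-07, edgeR). Pbx4 had the largest fall and the only one past the threshold in this fit, from 32.7 ± 5.49 to 11.0 ± 3.11 CPM (log2 difference -1.55 ± 0.20, adjusted p = 8.43e-05, edgeR). Meis2 (-0.56), Pbx2 (-0.38), Pknox2 (-0.33) and Pbx3 (-0.23) were lower as well but not past it.

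Of 41 genes of RGC identity, all but the RNA-binding Rbpms transcription factors or cofactors, 36 were tested, 5 were higher (13.9%, against 21.3% of all genes) and 22 lower (61.1%, against 22.7%), with a median log2 difference of -0.90. Without injured 1, 17 of them were past the threshold, as were 4961 of all 14378 genes tested, against 6256 of 14234 with it. The largest rise was that of Sox11, from 28.2 ± 4.32 to 1083 ± 85.1 CPM (5.27 ± 0.16, adjusted p = 1.85e-09, edgeR). The largest fall was that of Zic1, whose cells held Irx4 most often, from 15.9 ± 8.75 to 0.371 ± 0.157 CPM (-5.30 ± 1.03, adjusted p = 0.00138, edgeR), with samples that overlapped. Of 20 axon guidance genes, 18 were tested, 2 were higher (11.1%, against 21.3% of all genes) and 6 lower (33.3%, against 22.7%), with a median of -0.07. Cntn2, an axonal adhesion molecule, had the largest rise (20.6 ± 3.57 to 47.2 ± 4.88 CPM, log2 difference 1.17 ± 0.15, adjusted p = 7.85e-05, edgeR) and Sema3a the largest fall (adjusted p = 9.15e-04, edgeR). Slit1, the target known from chick, was at 17.6 ± 4.78 CPM in uninjured and 25.6 ± 2.47 CPM in injured samples, which was not past the threshold (0.53 ± 0.22, adjusted p = 0.0735, edgeR).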

How the data were processed

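Per the labels the reads were aligned to mm39 with Cell Ranger (7.0.1 in the submitters' processing notes). The authors kept RGCs and deposited the UMI counts of every gene in every cell, not normalized. Kit and sequencer differ between sources, with v3 and NovaSeq in the labels and v2 and HiSeq in the methods. Counts were summed per library, injured 3 and 4 being averaged and rounded (Python 3.11.15, numpy 2.4.6, scipy 1.17.1, pandas 2.3.3). Tests used edgeR 4.0.16 in R 4.3.3, with filterByExpr, TMM factors, a robust quasi-likelihood fit and Benjamini-Hochberg adjustment over all genes at 0.05. CPM were TMM-scaled. Standard errors came from the log2 ratio and the F statistic. Doublets were not called again. Cells with and without an Irx gene were summed per library at 8000 UMIs per cell, with at least 10 cells in each pool.

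The members, lists and rules were chosen with earlier results of these data known. All members were named. For each Irx gene the 5 genes of largest ratio were named among those past the threshold, higher in every library and at a mean log2 CPM no lower than 5, and also the 5 of highest r. From each list the largest rise and fall were named. DESeq2 1.42.0, limma 3.58.1 (voom), other factors, filters, cells and samples were the alternatives. The fits were tested on simulated data. Homeobox stretches were read from the GENCODE transcripts. Depth was 2839693 to 23180399 UMIs per library, and a count of 0 allows up to 3 counts. Intervals and floors cover counting error alone.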

Additional observations from a re-analysis of the deposited data

Results flagged for a closer look

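Irx1 had 1 sample far from the others. In uninjured samples it was at 0, 0, 1.43, 1.23, 7.17 and 2.27 CPM, and uninjured 5 stood 0.684 of the whole range above the next sample, past Dixon's 95% limit for 6 samples. Of 13 such groups of uninjured values examined, this was the only one past the limit, and chance alone passes about 1 in 20. In uninjured 5 Irx1 was found in 12 of 267 cells (4.49%).

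The mCherry reporter, which lies outside the comparisons, was found in 7.99% of the cells of injured 1, 15.02% of injured 2, 86.0% of injured 3 and 84.3% of injured 4, and in no uninjured cell. Cells with and without mCherry were each scaled to their own UMIs in a library, without TMM scaling. Irx4 was at 0 CPM with and 0.932 CPM without mCherry in injured 1, 1.38 and 0.755 CPM in injured 2, 1.27 and 0.995 CPM in injured 3, and 0.906 and 0 CPM in injured 4. Irx2 was at 12.3 and 10.1, 6.90 and 9.56, 17.1 and 5.97, and 16.1 and 7.96 CPM in the same order, so that injured 2 went the other way. These differences were not tested.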

How the results depend on the processing

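Log2 injury differences ranged from -6.19 to -5.29 for Irx4, -4.42 to -3.20 for Irx6 and -2.43 to -1.73 for Irx2 over all settings. Irx3 was not past it with DESeq2 (-0.43), limma-voom (-0.38), no filter (-0.45), at most 10% mitochondrial UMIs (-0.43) and Malat1 at 3 to 5% (-0.60). Neither Irx3 nor Irx5 was past it, which left 3 members, without cells with markers of another class (-0.14 and -0.31), thinned to 8000 UMIs (-0.45 and -0.47), with similar libraries summed (-0.46 and -0.65), without injured 3 and 4 (-0.43 and -0.60), and, chosen after seeing the data, in cells without mCherry (-0.51 and -0.77). Leaving out 1 library gave -0.56 to -0.33 for Irx3, -0.76 to -0.52 for Irx5, and 3 to 5 members past the threshold. Irx4 could not be tested with at least 10 counts in every sample. Shares without overlap between conditions numbered 3 in thinned cells against 5.

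Libraries 1 to 4 share numbers across conditions, but same-numbered libraries did not deviate together (r from -0.056 to 0.014). A replicate block over these 4 and 4 gave -5.68 for Irx4, -3.96 for Irx6, -1.73 for Irx2, -0.84 for Irx5 and -0.41 for Irx3, and 7782 genes past the threshold against 8230 without the block.

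Of the 15 pairs, of which the 5 with Irx1 could not pass because uninjured 1 and 2 held no UMI of it, 8 shared more cells than if independent in all 6 libraries, and 5 with at least 2 UMIs or without cells with markers of another class. Irx4 and Irx6 turned below 1 when thinned (0.844), with at least 2 UMIs (0.884) and without markers of another class (0.658), Irx2 and Irx6 with the latter 2 (0.925 and 0.639), and Irx1 with Irx3 (0.990) or Irx4 (0.249) without markers of another class.

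Genes past the threshold in cells with Irx2, Irx3, Irx4, Irx5 and Irx6 numbered 603, 164, 738, 279 and 382. With all UMIs they numbered 1182, 497, 1394, 732 and 942, and with DESeq2 316, 72, 365, 95 and 184. With at least 2 UMIs they were 325 for Irx2, 45 for Irx3 and 121 for Irx5, and without a filter 283 for Irx3. Leaving out 1 library gave 404 to 679, 100 to 180, 508 to 770, 146 to 311 and 198 to 475. The other TALE genes past the threshold, 5, were 9 with limma-voom and in libraries 1 to 4 with or without the replicate block, 3 with Malat1 at 3 to 5% and 4 to 6 without 1 library, and the RGC factors, 27, were 17 to 27 without 1 library. Irx1, at 98 UMIs in 1683 uninjured cells, is limited by depth.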
